A study of Mus musculus with 2 samples.

Results

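Chromatin accessibility was described at 10 mouse genes that encode cytokine receptor chains: Il4ra, Il21r, Il2rg, Il6st, Il6ra, Csf2rb, Csf2rb2, Il3ra, Csf3r and Epor. They are 10 of 21938 protein-coding genes of the annotation, and the rule takes them by name. For each gene every open region was taken whose strongest summit lay in the gene body or within 50 kb of the gene's 5′ end. Regions shared by neighbouring genes were counted once. This gave 84 of the 80938 regions of the conservative peak list. The genes were chosen by name with the region counts and promoter peaks of these same libraries known, so all values are given as a description, with no test, and nothing is supported by them.

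ATAC-seq, in which a transposase cuts and tags accessible DNA, was run on primary megakaryocyte progenitors of adult male C57BL/6J mice aged 5 to 6 weeks. These progenitors give rise to megakaryocytes, the cells that shed platelets. There was 1 group of 2 biological replicates, each made from 50000 cells, with no treatment, genotype or other condition to compare. Both libraries name the same donor record but separate biosamples, so the spread between them may hold little variation between animals, and the label of replicate 1 alone names 2 sequencing instruments. The own list of replicate 1 held 61735 regions and that of replicate 2 held 60098. Read totals were not used here, so the depth behind each value is unknown.

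Cytokine receptors of this family have no kinase of their own. A ligand brings receptor chains together, JAK kinases bound to their tails phosphorylate them, and STAT transcription factors dock there and move to the nucleus. Several chains are shared between ligands, such as the common gamma chain, gp130 and the common beta chain, while other chains give specificity. In bone marrow such receptors carry signals for the growth and maturation of blood cells.

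The strongest open region outside promoters, by signal in the conservative list, is shown first for 6 loci. These stretches are part of the distal accessibility described below. Each line gives 151 bases around the strongest summit on the plus strand of GRCm38.p6 (mm10). Capitals mark matches to the motif words described further on. They lay at chr7:125630422-125630572 (intron 7 of Il21r), chrX:101287689-101287839 (an intron of Med12, beside Il2rg), chr13:112427611-112427761 (intergenic, upstream of Il6st), chr3:89953548-89953698 (an intron of Atp8b2, upstream of Il6ra), chr15:78369011-78369161 (intergenic, downstream of Csf2rb) and chr9:21978144-21978294 (an intron of Rgl3, upstream of Epor).
Il4ra and Il21r: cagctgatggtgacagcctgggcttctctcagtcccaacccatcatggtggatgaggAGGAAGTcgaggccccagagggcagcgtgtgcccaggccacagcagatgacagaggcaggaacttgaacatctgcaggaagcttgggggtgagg
Il2rg: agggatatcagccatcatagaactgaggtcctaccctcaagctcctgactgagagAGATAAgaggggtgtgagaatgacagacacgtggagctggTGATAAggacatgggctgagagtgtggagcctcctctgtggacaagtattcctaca
Il6st: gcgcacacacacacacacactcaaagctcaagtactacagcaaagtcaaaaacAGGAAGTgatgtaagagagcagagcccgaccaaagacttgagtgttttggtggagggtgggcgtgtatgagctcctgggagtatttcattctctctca
Il6ra: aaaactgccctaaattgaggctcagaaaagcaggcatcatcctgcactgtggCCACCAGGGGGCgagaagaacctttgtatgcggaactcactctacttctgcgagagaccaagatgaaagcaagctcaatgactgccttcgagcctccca
Csf2rb and Csf2rb2: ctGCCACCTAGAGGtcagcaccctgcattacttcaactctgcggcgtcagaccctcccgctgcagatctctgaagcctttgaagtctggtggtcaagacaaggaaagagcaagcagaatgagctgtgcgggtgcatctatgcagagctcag
Epor: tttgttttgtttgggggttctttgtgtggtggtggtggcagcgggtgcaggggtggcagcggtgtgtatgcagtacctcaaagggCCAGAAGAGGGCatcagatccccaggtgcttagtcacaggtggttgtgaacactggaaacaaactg
The capitals are an ETS word at Il21r and at Il6st, a pair of GATA words at Il2rg, and a short CTCF word at Il6ra, Csf2rb and Epor. Il3ra had no region outside its promoter.

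All 10 genes had a promoter peak, an open region overlapping 1 kb either side of an annotated start site, against 61% of all protein-coding genes. In the own lists of both replicates 9 of 10 had one, against 55.7% of all genes. The exception was Il21r. These counts touch the lists used to pick the genes, so nothing is read from them. The signal, the value the authors' peak caller gave the strongest summit, was low to moderate: 8 of 10 genes were below the median of 11.2 over the 13386 genes with a promoter peak, and the median of the 10 was 8.22. In bulk samples, fewer cells with an open site and less opening per cell cannot be told apart.

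**Figure D1:**
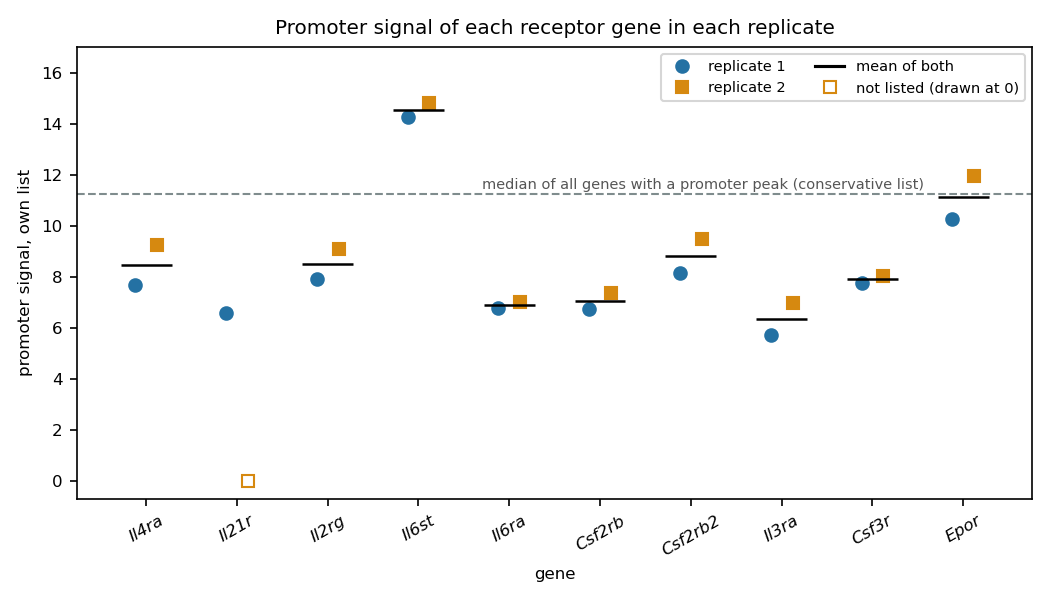
Promoter signal (vertical axis, the peak caller's value without unit) of each gene in replicate 1 (circles) and replicate 2 (squares), with the mean of both as a bar and an open square where no peak was listed. Il6st is the highest in both replicates, 14.3 and 14.8, and Il21r has no listed promoter peak in replicate 2.

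Il4ra encodes the alpha chain of the receptors for interleukin 4 and interleukin 13, and Il21r the specific chain of the interleukin 21 receptor. The genes are neighbours on chromosome 7, Il4ra from 125552120 to 125579474 and Il21r from 125603429 to 125633570, both on the plus strand with 23.95 kb between them. The Il4ra promoter had a signal of 7.67 in replicate 1 and 9.25 in replicate 2 (mean 8.46 ± 1.12, SD, n = 2), and 8.43 in the conservative list. The Il21r promoter had 6.57 in replicate 1 and was not in the thresholded list of replicate 2, while the longer pseudoreplicated list of replicate 2 gave it 5.91. It ranked 12219th of 13386 promoters in the conservative list, where Il4ra ranked 10290th. Both promoters were thus in the weaker part of the ranking.

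This pair had 28 open regions together, 20 in the locus of each gene with 12 common to both. Outside promoters Il4ra and Il21r each had 19 regions within 50 kb of the 5′ end, a number reached by 13 of 21938 genes, these 2 included. The mean over all protein-coding genes was 4.20, the 95th percentile 11 and the highest count 22. In the own lists the loci held fewer: Il4ra had 15 regions in replicate 1 and 13 in replicate 2 (14 ± 1.41, SD, n = 2), and Il21r had 14 and 12 (13 ± 1.41). The conservative count of 20 is therefore over 1.5 times that of replicate 2 alone for both genes. Counts in the own lists were lower over all genes too. Outside promoters the mean over all protein-coding genes was 3.09 in replicate 1 and 3.03 in replicate 2, against 4.20. Outside promoters Il4ra had 14 and 12 and Il21r 13 and 12, against 19.

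The median signal of the regions of the pair was 6.47, against 8.90 over all regions, 21 of 28 lay below the median of all regions, and 0 of 28 in the top 10%. Of the 28, 17 were intergenic, 6 in introns of the pair, 3 in exons and 2 at the promoters. Both replicates listed 17 of 28 (60.7%, against 63.9% of all regions), replicate 1 alone 4 and replicate 2 alone 1. The other 6 were in neither thresholded list, all 6 in both pseudoreplicated lists. Over all regions 18.9% were in neither thresholded list. The 6 in neither had signals of 3.60 to 4.74, at the low end of the locus.

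The strongest regions of the pair in the conservative list lay in Il21r. A region in intron 7 (125630189 to 125630746) had a signal of 10.7 in replicate 1 and 13.3 in replicate 2, and one in intron 1 (125613561 to 125613986) had 11.2 and 10.4. An intergenic region 9.38 kb upstream of Il21r (125593795 to 125594249) had 10.3 and 10.96. The order of these 3 regions differed between the replicates: the intron 1 region was the highest in replicate 1 and the lowest of the 3 in replicate 2. Between the genes lay 8 regions, of which 5 were within 7 kb of the Il21r 5′ end. Those 5 had signals of only 3.60 to 5.46, 2 were listed by replicate 1 and 0 by replicate 2, and all 5 were in both pseudoreplicated lists. Inside the Il4ra gene body the strongest region was in intron 1, 9.34 kb from the 5′ end, with 8.10 and 9.94.

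**Figure D2:**
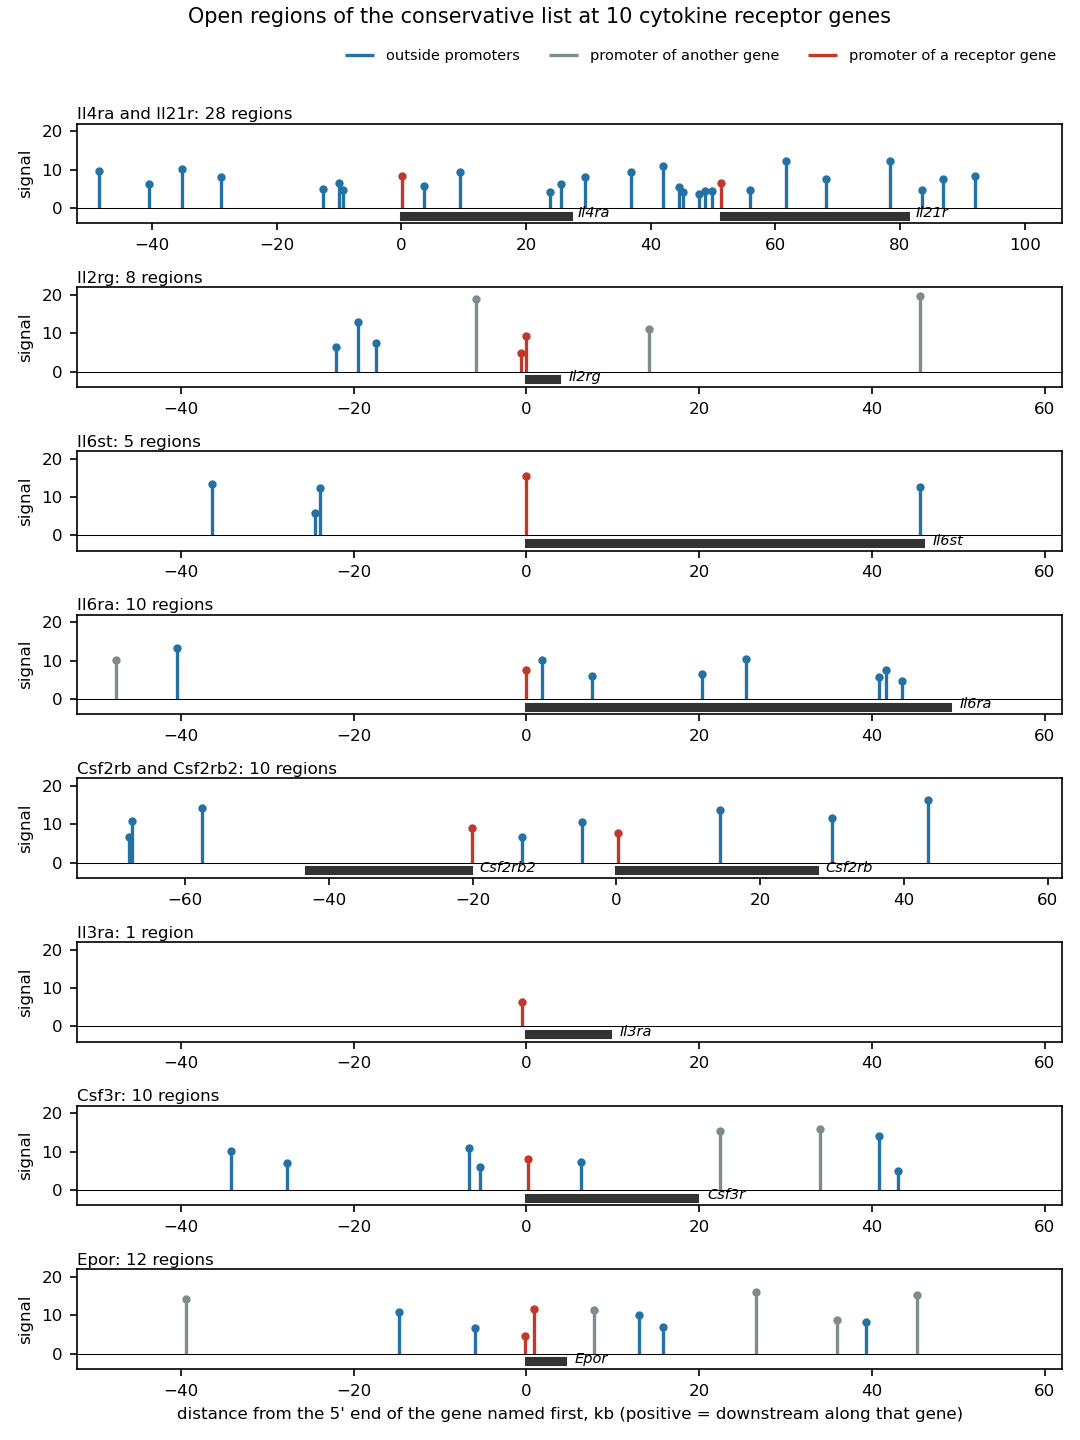
Open regions of the conservative list at each locus, by distance from the 5′ end of the gene named first (horizontal axis, kb, positive downstream) and signal (vertical axis, no unit); black bars are gene bodies and colours separate promoters from other regions. Il4ra with Il21r shows 28 regions, the highest at 12.3 and 21 of them below the median of all regions, and Il3ra 1 region at its promoter.

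Il2rg encodes the common gamma chain, which pairs with the chains for interleukins 2, 4, 7, 9, 15 and 21, and lies on the minus strand of chromosome X (101264378 to 101268255). Its promoter had a signal of 7.89 in replicate 1 and 9.09 in replicate 2 (8.49 ± 0.850, SD, n = 2). A second region 0.631 kb upstream had 4.79 in the conservative list and was in neither thresholded list. It lay nearer to the 5′ end of another gene, Gm20489 (0.137 kb). Of 8 regions at the locus 5 were at promoters, 3 of these of other genes only. The promoter regions of Snx12 (19.7) and Med12 (18.98) had the highest signals of all 84 regions, and Foxo4 had 11.1. The own list of replicate 1 held 5 regions and that of replicate 2 held 6. Of the 8, 1 had Il2rg as the nearest protein-coding 5′ end. The strongest region outside promoters was in an intron of Med12, a Mediator subunit gene, 19.5 kb upstream of Il2rg, with 12.3 and 11.4.

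Il6st encodes gp130, the signal-transducing chain shared by interleukin 6, interleukin 11 and related ligands, on chromosome 13 (112464070 to 112510086, plus strand). Its promoter had 14.3 in replicate 1 and 14.8 in replicate 2 (14.5 ± 0.377, SD, n = 2), the highest of the 10 genes and above 83.9% of all promoter peaks. The locus held 5 regions, all 5 in both own lists, with a median signal of 12.7. Besides the promoter there were 3 intergenic regions 23.9 to 36.4 kb upstream, and 1 region in exon 17 with 9.95 and 12.8. Of the intergenic regions, the strongest in the conservative list lay 36.4 kb upstream and had 11.04 and 12.7. The one 23.9 kb upstream had 11.47 and 11.54, so their order differed between the replicates.

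Il6ra encodes the chain that binds interleukin 6, on chromosome 3 (89864059 to 89913196, minus strand). Its promoter had 6.78 and 7.02 (6.90 ± 0.174, SD, n = 2), less than the gp130 promoter by more than the difference between replicates in either gene. Of the 10 regions, 6 were in introns of Il6ra and 1 in its exon 10. The own lists of both replicates held 6 of the 10, and 4 were in neither, so either list alone gave 6 regions. Inside the gene a region in intron 3 (89887479 to 89888035) had 9.91 and 9.01, and one in intron 1, 1.81 kb from the 5′ end, had 9.28 and 9.44, so their order differed between the replicates. An intron of Atp8b2, a neighbouring gene 40.4 kb upstream, held the strongest region outside promoters, with 10.8 and 11.9.

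Csf2rb encodes the common beta chain of the receptors for interleukin 3, interleukin 5 and GM-CSF, and Csf2rb2 a beta chain that in mice serves interleukin 3. They lie on chromosome 15 in opposite directions, Csf2rb2 from 78282507 to 78305721 on the minus strand and Csf2rb from 78325752 to 78353847 on the plus strand. The Csf2rb promoter had 6.75 and 7.37 (7.06 ± 0.438, SD, n = 2) and the Csf2rb2 promoter 8.13 and 9.46 (8.80 ± 0.936). In each replicate Csf2rb2 was above Csf2rb. The pair had 10 regions, 9 of them in both own lists, with a median signal of 10.7. The strongest lay 43.3 kb downstream of the Csf2rb 5′ end (14.1 and 14.7), 37.7 kb downstream of the Csf2rb2 5′ end (12.2 and 13.5) and in intron 5 of Csf2rb (11.9 and 11.9). The nearest protein-coding 5′ end was that of Tex33 (26.8 kb) for the region at 43.3 kb. For the region at 37.7 kb it was that of Ncf4 (23.25 kb). Of the 10 regions, 6 had Csf2rb or Csf2rb2 as the nearest 5′ end.

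The 2 genes lie in an inverted duplication, which allows open regions to be compared with their own copies. The open regions at both promoters were copies of each other: by blastn they matched at 91.7% identity, and of 714 bases compared in the alignment 670 were identical. The summits lay 3 bases apart on that alignment. The 250 bases before the Csf2rb2 start are shown because the open regions at both promoters hold the same motif words in this stretch. They come from RefSeq on GRCm38.p6 (chr15:78305722-78305971, minus strand), and capitals mark a KLF, a GATA and a STAT word.
Csf2rb2: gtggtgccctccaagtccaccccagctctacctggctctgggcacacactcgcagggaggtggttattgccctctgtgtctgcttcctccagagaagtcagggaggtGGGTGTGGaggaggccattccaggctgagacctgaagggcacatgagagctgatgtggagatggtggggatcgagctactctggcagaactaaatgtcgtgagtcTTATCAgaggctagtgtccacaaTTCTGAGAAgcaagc
These words begin 143, 38 and 15 bases before the start. The 248 bases aligned to this stretch at Csf2rb hold the same words. The Csf2rb2 start aligned 203 bases inside the annotated Csf2rb gene, so most of the 248 bases lay downstream of the Csf2rb 5′ end. How reads that map to both copies were treated is not given in the sources used here.

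Away from the promoters 3 regions had a copy. The region in intron 5 of Csf2rb (78340094 to 78340361) had a copy in Csf2rb2 that was in none of the 8 lists. The 151 bases around its summit and the copy were 87.1% identical, with 14 substitutions. They are shown because 1 copy is open and the other is not listed; capitals mark bases that differ or face a gap, at chr15:78340151-78340301 on the plus strand and chr15:78292998-78293150 on the minus strand.
Csf2rb intron: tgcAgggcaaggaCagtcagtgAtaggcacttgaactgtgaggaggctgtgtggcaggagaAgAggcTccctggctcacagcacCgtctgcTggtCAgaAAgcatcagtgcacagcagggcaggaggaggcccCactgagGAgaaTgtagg
Csf2rb2 copy: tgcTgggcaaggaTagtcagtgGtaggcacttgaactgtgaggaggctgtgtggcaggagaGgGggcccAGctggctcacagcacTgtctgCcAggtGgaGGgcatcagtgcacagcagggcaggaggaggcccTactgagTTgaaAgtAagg
The GATA word TGATAG of the open window has no match in the copy. A region 4.75 kb upstream of Csf2rb (8.34 and 11.4) likewise had a copy, 70.9% identical around the summit, that was in none of the lists. There the short CTCF word was absent from the copy while a STAT word was in both. Another region, between the genes (78312270 to 78313209), was 98.7% identical around its summit to its copy, with 2 substitutions. The region had a signal of 6.76 in the conservative list and was in neither thresholded own list, and its copy was in that of replicate 2 alone (6.28). In the pseudoreplicated lists both were present in both replicates, the region with 5.93 and 6.11 and its copy with 3.42 and 6.28.

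Il3ra encodes the chain that binds interleukin 3, on chromosome 14 (14346275 to 14356011, plus strand). Its promoter had 5.72 in replicate 1 and 6.95 in replicate 2 (6.34 ± 0.874, SD, n = 2), and this was the only region of the conservative list at the locus, while the own lists held 1 in replicate 1 and 2 in replicate 2. It had 0 regions outside promoters within 50 kb of the 5′ end in the conservative list and in either own list. The nearest region beyond the window, 51.6 kb upstream, had a signal of 21.7.

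Csf3r encodes the receptor for G-CSF, the main growth factor of neutrophils, on chromosome 4 (126024550 to 126044440, plus strand). Its promoter had 7.76 and 8.02 (7.89 ± 0.180, SD, n = 2). The locus held 10 regions, 8 in each own list, and 8 of the 10 were in both. The strongest region outside promoters with Csf3r as the nearest gene lay 6.68 kb upstream (9.98 and 10.3). The promoters of Mrps15 and Oscp1 had 15.3 and 15.9 in the conservative list, above every region nearer to Csf3r.

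Epor encodes the erythropoietin receptor, needed for red cell production, on chromosome 9 (21958897 to 21963506, minus strand). Its promoter had 10.3 and 11.95 (11.1 ± 1.19, SD, n = 2), after Il6st the highest of the 10 genes. That region lay 0.882 kb inside the gene, and a weaker one, 0.138 kb upstream of the 5′ end, was listed by replicate 2 alone (4.85). Of 12 regions 5 were at promoters of other genes, with Plppr2 at 16.04, Rab3d at 15.4 and Prkcsh at 14.3, and 3 of 12 had Epor as the nearest 5′ end. The strongest region outside promoters in the conservative list (10.9) lay in an intron of Rgl3. It was listed by replicate 2 (9.17) and not by replicate 1, whose pseudoreplicated list gave it 9.75. An intergenic region 12.98 kb downstream of the Epor 5′ end (10.2 in the conservative list) was in both own lists, with 8.70 and 10.8. In replicate 2 it was thus above the Rgl3 region.

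By mean promoter signal over both replicates the order was Il6st, Epor, Csf2rb2, Il2rg, Il4ra, Csf3r, Csf2rb, Il6ra and Il3ra, with Il21r left out. Il6st stood above Epor in each replicate. From Csf2rb2 to Csf3r the values of neighbours overlapped, and so did those of Csf2rb, Il6ra and Il3ra.

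Over all 84 regions, 60 (71.4%; Wilson 95% interval 61.0 to 79.99) were in the own lists of both replicates, against 63.9% of all regions. Replicate 1 alone listed 4, replicate 2 alone 4, and 16 were in neither, of which 14 were in both pseudoreplicated lists. All 11 regions at promoters of other genes, 9 of 12 at promoters of the receptor genes and 40 of 61 outside promoters were in both, the last against 59.7% of all regions outside promoters. The share over all regions at promoters was not computed, so nothing is read from the promoter counts. Signal was higher in replicate 2 at 46 of the 60. On the log2 scale the median difference, replicate 2 over replicate 1, was 0.09 (range -0.26 to 0.45), and it was 0.08 over all regions (SD 0.18). The offset at the receptor loci was close to that of all regions.

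**Figure D3:**
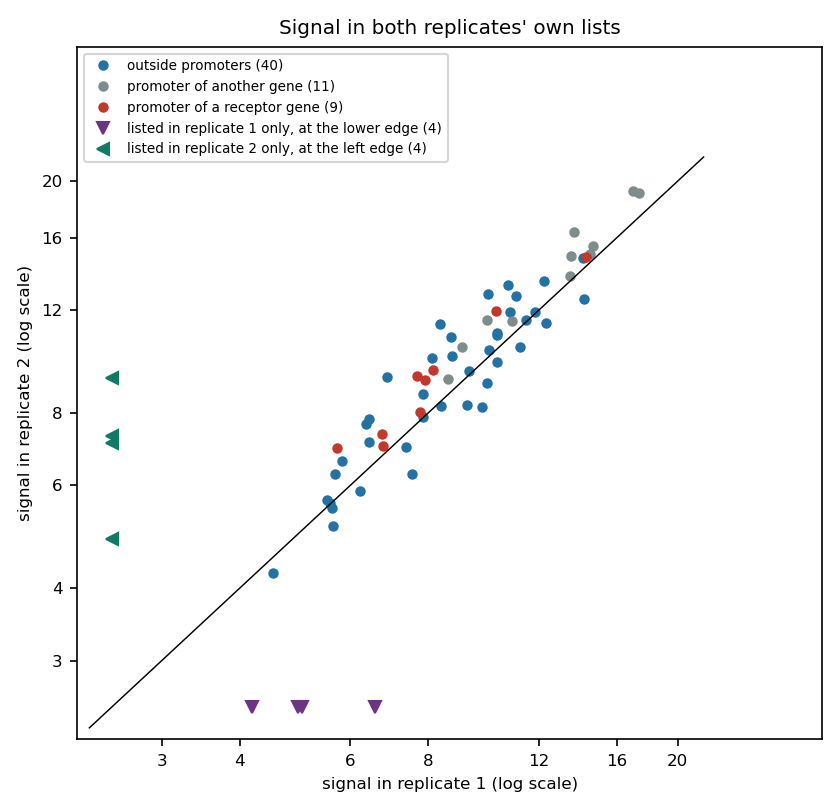
Signal of each region in replicate 1 (horizontal) and replicate 2 (vertical), both on log scales without unit, with the line of equal values; triangles at the edges are regions listed by 1 replicate only. Of 60 regions in both lists 46 lie above the line.

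The loci differed in how strong their regions were. The median percentile of signal among all regions was 22.6 at Il4ra with Il21r, 35.6 at Il6ra and 21.2 for the 1 region of Il3ra, and between 50.6 and 79.9 at Il2rg, Il6st, Csf2rb with Csf2rb2, Csf3r and Epor. Of the 8 regions in the top 10%, 6 were promoters of other genes, 1 was the Il6st promoter and 1 lay downstream of Csf2rb. By type, the median signal was 15.3 at promoters of other genes, 7.91 at promoters of the receptor genes and 7.61 outside promoters.

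**Figure D4:**
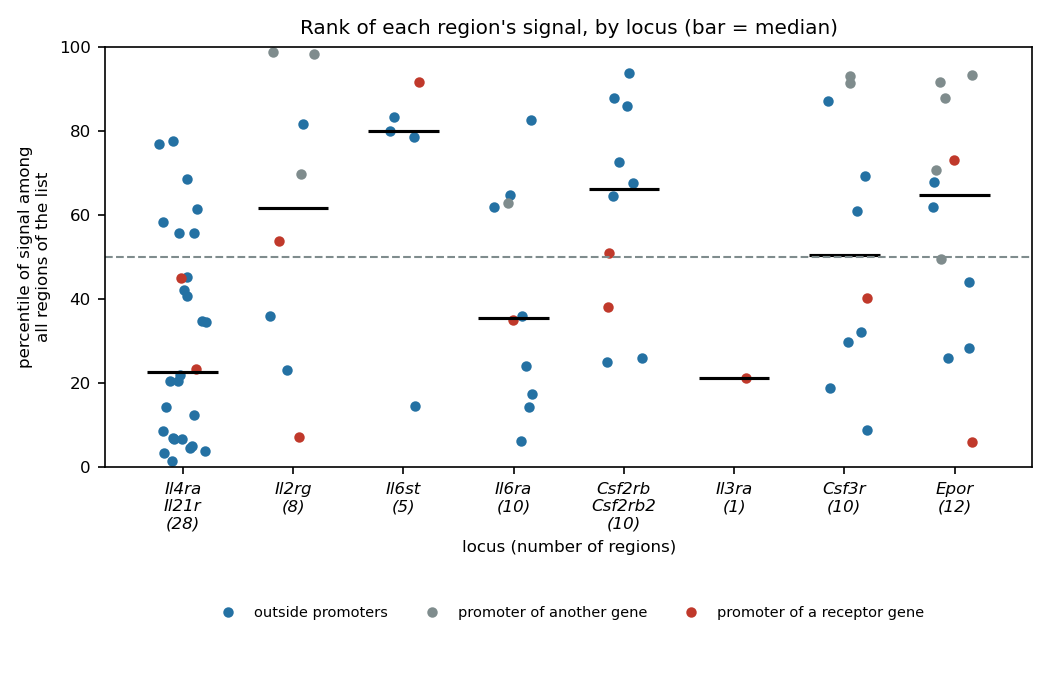
Percentile of each region's signal among all 80938 regions (vertical axis), by locus, with the median as a bar and the middle of all regions as a dashed line. At Il4ra with Il21r 21 of 28 regions lie below the dashed line.

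Motif words were searched on both strands within 75 bp of the strongest summit of the 61 regions outside promoters. The STAT word was TTCNNNGAA, where N is any base. The GATA words had A or T, then GATA, then A or G. The ETS words had A or C before GGAAGT. The RUNX words were TGTGGT followed by T or C. The word for AP-1 and NFE2 was TGANTCA, that for CEBP was TTGCNNAA and that for KLF was CCACNCCC. The IRF word was GAAA repeated with any 2 bases between, and the CTCF word a 14-base consensus. GATA words were in 17 of 61 (27.9%, against 29.8% of all regions outside promoters), ETS words in 14 (23.0% against 17.7%), CEBP words in 11 (18.0% against 11%) and RUNX words in 8 (13.1% against 14.3%). AP-1 and NFE2 words were in 7 (11.5% against 7.92%), KLF words in 7 (11.5% against 7.58%), STAT words in 5 (8.20% against 3.66%) and IRF words in 1 (1.64% against 2.26%). The full CTCF word was in 0 of 61, which allows a share of up to 4.92% by a limit of 3 counts (upper end of the Wilson interval 5.92%), against 0.647%. For each of the 9 motifs the share over all regions lay within the Wilson 95% interval of the 61, which covers counting error only. For STAT (3.55 to 17.8%) and CEBP (10.4 to 29.5%) it lay close to the lower end. Within 50 bp of the summit the STAT share over all regions lay outside: 4 of 61 (6.56%, 2.58 to 15.7%) against 2.19%. Within 100 bp it lay inside (4.59 to 19.8%, against 5.26%). In each own list within 50 bp, the share over that list also lay inside. There 2 regions had a STAT word in replicate 1 (4.44%, against 2.2% over its list) and 2 in replicate 2 (4.35%, against 2.08%). In each own list the share at the loci was thus above that over the list, as in the conservative list. With 2 regions in each list the intervals were wide, so nothing is read from the share lying inside. The value outside the interval in the conservative list rests on 4 regions. These matches are letters in a window and not evidence of binding.

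The 5 STAT words lay in 3 regions of Il4ra with Il21r, 1 of Csf2rb with Csf2rb2 and 1 of Csf3r. The shorter CTCF word, CC, any 3 bases, AG, any 2 bases and GGC, chosen after the data were seen, was in 10 of 61 (16.4% against 17.9%). Among 90 matches 6 overlapped a match of another motif, and 9 windows had none. The windows had a median GC content of 54.97%, against 50.3% over all regions outside promoters; its part in the motif shares was not tested.

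**Figure D5:**
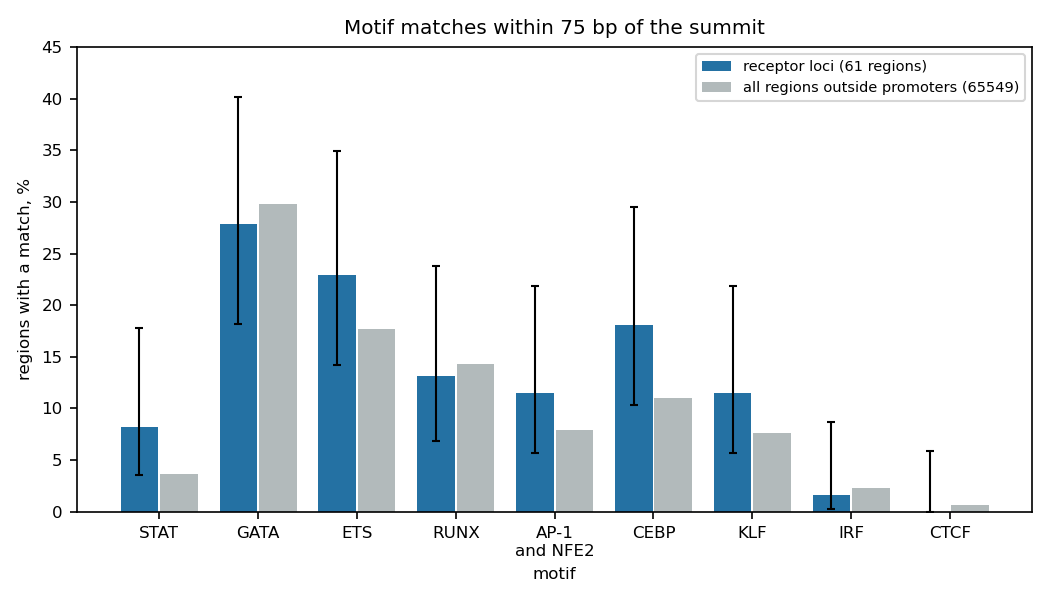
Share of regions outside promoters with a motif word within 75 bp of the summit (vertical axis, percent) at the receptor loci (61 regions, error bars are Wilson 95% intervals) and over all 65549 such regions. The grey bar lies within the interval for each motif, for STAT and CEBP close to its lower end.

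The promoters themselves differed in base composition. RefSeq promoter sequence of 300 bases was matched for 9 of the 10 genes. The ratio of observed to expected CpG was 0.935 at Il4ra, 0.943 at Il6st, 0.847 at Il3ra and 0.769 at Il6ra, and between 0.134 at Csf2rb2 and 0.326 at Csf3r for the other 5, against a median of 0.384 over all promoters in the table. A high ratio did not go with a high signal in this small set: Il6st had the highest promoter signal and Il3ra the lowest in the conservative list.

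The rest of the pathway was described by promoter peaks. Of 24 other class I and II cytokine receptor genes 16 had one, 12 in both own lists, with the highest signals at Il7r (16.2), Ifnar1 (15.7) and Ghr (13.5) and none at Il2rb, Il13ra1, Osmr and Cntfr, among others. All 11 JAK and STAT genes had one, 9 in both own lists, with Stat2 (16.9) and Jak1 (13.9) among the highest. All 9 inhibitor genes, which include the SOCS family, had one in both own lists, led by Socs7 (13.2), Socs5 (12.5) and Socs6 (10.99). Of 12 ligand genes 6 had one, 4 in both own lists, led by Il6 (13.2), Csf2 (12.2) and Epo (9.67). There was none at Il13, Il21, Il2 and Il3, among others. Over all protein-coding genes 61% had a promoter peak, as above.

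Markers were checked against the cell label; the library description also carries the code CFU-M, which is not interpreted here. Promoter peaks were present at 7 of 8 megakaryocyte genes (5 in both own lists), with Vwf, named after its value was seen, without one. They were present at 0 of 4 T cell, 1 of 4 B cell (Pax5), 2 of 4 erythroid, 3 of 4 granulocyte, 1 of 4 monocyte and macrophage (Adgre1) and 1 of 4 mast cell genes (Hdc), each of these in both own lists. Over all protein-coding genes 61% had a promoter peak, and 55.7% had one in both own lists. With 4 to 8 genes per list, nothing is read from these counts. The median number of regions outside promoters within 50 kb was 11.5 for the granulocyte genes. It was 7 for the megakaryocyte and for the monocyte and macrophage genes, and 6 for the mast cell genes. The B cell genes had 4, the erythroid 3.5 and the T cell genes 1.5, and the median over all protein-coding genes was 4. What part other cell types had in the receptor loci was not tested.

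Values just inside and outside the 50 kb window were as follows for the pair with the most regions. The farthest regions inside the Il4ra window lay 48.5 kb upstream (signal 9.78) and 49.8 kb downstream (4.47), and the nearest outside were the Il21r promoter at 51.3 kb (6.53) and a region 60.6 kb upstream (15.7). Close to the edge at other genes, Csf2rb2 had a region 50.03 kb away (11.5) and Il6st one 50.3 kb away (10.7), both outside.

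Genes alike in region count and promoter signal were ranked by distance over 4 values, the log2 of 1 plus the regions within 50 kb and of 1 plus the promoter signal in each of the 2 replicates. The nearest to Il4ra were Cdc42bpg, Rmnd5b and Tspan14, each with 15 regions in replicate 1 and 13 in replicate 2, as Il4ra had. The nearest to Csf3r were Lbp, Slc37a1 and Snx10, each with 8 and 8. The nearest to Epor were Yif1a, Mesd and Rpl17, each with 9 and 11.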

How the data were processed

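The files analysed are peak lists in mm10 coordinates that the authors deposited, with aligner and caller not given in the sources. Each record holds a summit and a signal, as assigned by the authors' caller. No scaling between libraries is stated. The authors made IDR-thresholded and pseudoreplicated lists from each library, and conservative, IDR-thresholded, replicated and pseudoreplicated lists from both. Alignments and signal tracks were left aside, so depth is unknown.

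Summits within 1 interval were joined to a region, which took the highest signal among them. Genes and 54361 start sites of protein-coding transcripts came from GENCODE M21. A region was found in a replicate if at least 50% of either region was covered. Motif words were searched 75 bp each side of summits. Copies at Csf2rb were found with blastn 2.17.0 (E value 1e-10) within 50 kb of both genes and aligned with Biopython 1.88. Other steps used Python 3.11.15 and pandas 2.3.3. Overlap and motif matching were tested on simulated data. With 1 group there is no comparison between conditions and no test. The genes, lists and motifs were chosen with earlier results of these data known. Named were all 10 genes, the 3 genes of each pathway list with the highest promoter signal present in both own lists, up to 4 without a promoter peak, and the 3 genes most alike to Il4ra, Csf3r and Epor. Alternatives were other lists, windows, overlaps and each replicate alone. Some items that these rules name are not reported here.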

Additional observations from a re-analysis of the deposited data

How the results depend on the processing

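The 84 regions became 127 in the replicated list, 53 within 20 kb and 132 within 100 kb, and the median of 9 regions per gene became 15, 5 and 18. Assigning regions to the nearest protein-coding 5′ end gave a median of 5. With 1 replicate left out, the own list of the other gave 66 to 68 regions, a median of 7.5 to 8, and 9 to 10 genes with a promoter peak. The 71.4% found in both replicates became 97.6% with the pseudoreplicated lists. It was 97.4% for the 39 of the 84 that were in the stronger 50% of all regions by signal. The same shares over all regions were not computed for these settings, so neither value is read as a trait of these loci. GATA words were in 18.0% within 50 bp. Without each replicate in turn, the motif shares ranged from 6.52 to 8.89% for STAT, 24.4 to 34.8% for GATA, 21.7 to 26.7% for ETS, 8.70 to 11.1% for RUNX, 13.3 to 15.2% for AP-1 and NFE2, 10.9 to 17.8% for CEBP, 6.67 to 8.70% for KLF, 0 to 2.22% for IRF and 0% for CTCF. The shorter CTCF word, chosen after seeing the data, gave 16.4%. The cause of these changes was not tested beyond what each setting counts. Of 68 such values 56 stayed within 1.5 times a count, the Wilson interval of a share or 1 SD of a log2 ratio. Single genes moved more often, in 37 of 90 values. No paired analysis was possible because there is 1 group and no comparison between groups. Unknown depth limits what can be said of regions not listed in 1 replicate.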

Other observations

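Some regions of the replicates' own lists in these loci overlapped no region of the conservative list. They were 2 in replicate 1 (signals 7.64 and 9.75) and 3 in replicate 2 (6.73, 6.28 and 4.54). The region with 9.75 in replicate 1 and that with 6.73 in replicate 2 lay at the same place, at 78278351 to 78278766 and 78278257 to 78278774 of chromosome 15, downstream of Csf2rb2. The region with 6.28 was the copy described above.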
